A study of Mus musculus with 8 samples.

Results

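The matrix metalloproteinase genes were followed in skin of mouse pups aged 7 days, where near naked hairless mutants were compared with wild type mice. Members were the rows of the expression table whose RefSeq accession named a mouse gene called Mmp with a number, and that were measured on 3 or more of the 4 arrays in both dye orientations. Of 23 such genes in the name table, 17 had a row and 9 met the rule: Mmp8, Mmp9, Mmp11, Mmp13, Mmp14, Mmp15, Mmp16, Mmp17 and Mmp19. They stood among 11974 probes that met the same limit, of 21766 in all. The rule did not use the size or sign of any ratio.

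Mutant and wild type RNA were hybridized together on 8 spotted arrays with 2 colours. The mutant RNA carried Cy3 on arrays 1, 3, 5 and 8 and Cy5 on arrays 2, 4, 6 and 7. The mutant is a line with sparse hair, altered at the hairless locus; the sources used here give neither the strain and sex nor the allele carried by each pup, and they name no treatment. Per the design text the RNA came from 5 biological replicates of a single litter. Which array held which animal is unknown, but 8 arrays of 5 replicates must share animals, so that p-values are smaller and intervals narrower than animals would give.

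Matrix metalloproteinases are zinc enzymes that cut collagens, laminins, elastin, proteoglycans and other proteins outside the cell. They are made as inactive precursors, opened by other proteases such as plasmin or furin, and held in check by the tissue inhibitors of metalloproteinases (TIMPs). In skin they are known for remodelling of the dermis, wound healing and the reshaping of matrix around the hair follicle as it grows and regresses. Many are made by fibroblasts, keratinocytes, neutrophils or macrophages rather than by a single cell type. In whole skin, fewer cells of a type and less RNA per cell cannot be told apart.

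Values are log2 ratios of mutant over wild type, so that -1 is a halving in the mutant if the base of the deposited logarithm is 2, as assumed. No source used here states the direction; it is likely, since the mutant comes first in the design text and the RNA labelled as sample sits in channel 1. Whether the arrays run one way was read from the 232 spots of Gapdh, which can differ from each other by dye but not by genotype. Their ratios correlated below 0 in 16 of 16 pairs of arrays with opposite dyes (median r = -0.45). They correlated above 0 in 12 of 12 pairs with the same dyes (median r = 0.55). Every array was therefore taken to hold the same genotype over the other. With Cy5 over Cy3 on every array, pairs with opposite dyes would correlate above 0 as well. That reading is given below as an alternative only. Over all probes, arrays with opposite dyes showed little likeness (median r = -0.02, 6 of 16 pairs above 0), against a median r of 0.49 with the same dyes (12 of 12 above 0). Arrays had values for between 41.3% and 88.3% of rows, fewest on arrays 3, 2 and 1, and the SD of all values ran from 0.57 on array 5 to 1.60 on array 2. The labelled tissue could not be checked by marker levels, because ratios carry no level. No level of one gene can be set against another for the same reason.

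No metalloproteinase gene changed past the test. Of the 9 members, 0 passed at an adjusted p below 0.05 (limma, Benjamini-Hochberg over all probes), where 4.21% of all probes passed (81 higher and 423 lower; 380 and 757 with quantile normalization; 533 and 107 with the table read as Cy5 over Cy3, which turns the excess of lower calls). At an unadjusted p below 0.05 there was 1 member, Mmp17, where 20.5% of all probes lay. The fitted ratio was below 0 for 5 members and above 0 for 4, and 45% of all probes were below 0. The median over the members was -0.13, against 0.05 over all probes. The median SE of the members was 0.22 and that of all probes 0.23, so the members were about as precise as the rest of the array.

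**Figure D1:**
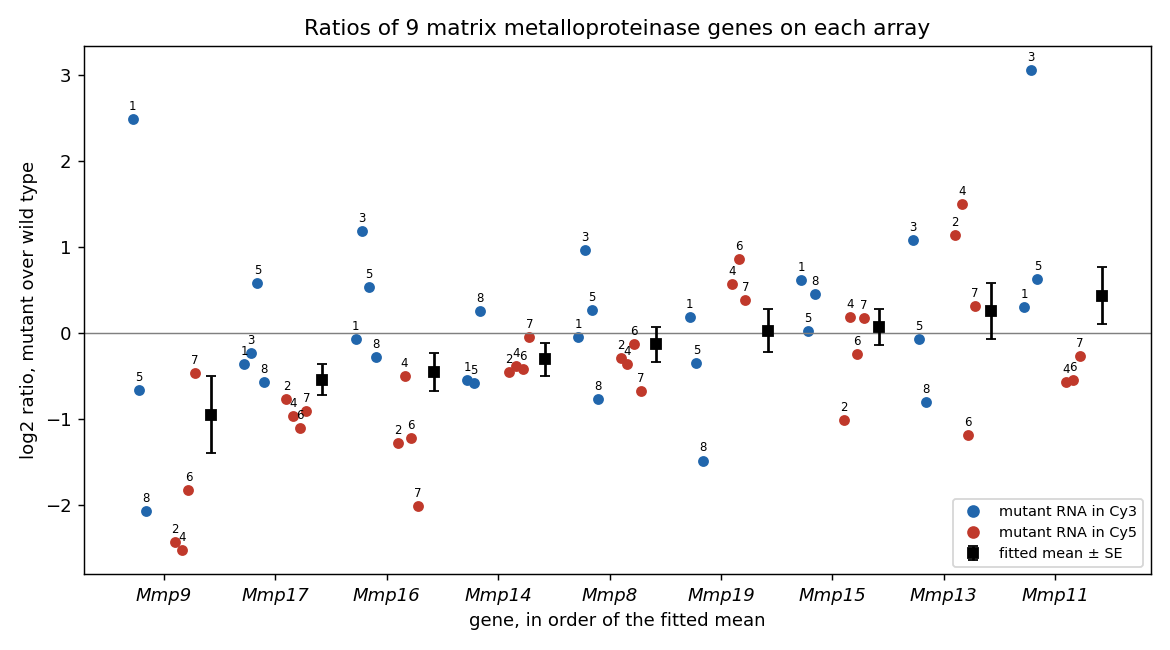
Log2 ratio of mutant over wild type for each of the 9 metalloproteinase genes; each point is 1 array with its number, blue with the mutant RNA in Cy3 and red in Cy5, and black squares are fitted means with their SE. Mmp9 lies lowest with a single point above 0 (array 1, 2.49), and Mmp11 has its highest point on array 3 (3.06).

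In order, the fitted ratios were -0.95 for Mmp9, -0.54 for Mmp17, -0.46 for Mmp16, -0.31 for Mmp14, -0.13 for Mmp8, 0.03 for Mmp19, 0.07 for Mmp15, 0.25 for Mmp13 and 0.43 for Mmp11. Each gene's 95% interval overlapped that of its neighbours in this order, and ratios between -0.31 and -0.15 lay inside all 9 intervals. The interval held 0 for 8 members, Mmp17 being the other. For 7 of the 9 it lay between -1 and 1, close to those limits for Mmp13 (up to 0.97), Mmp16 (down to -0.93) and Mmp17 (down to -0.93). Since intervals over animals would be wider, a halving or a doubling is not excluded by this. The widest were those of Mmp9 (-1.94 to 0.04) and Mmp11 (-0.31 to 1.17).

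Among the gelatinases, which cut denatured collagen and the collagen of basement membranes, Mmp9 had the lowest fitted ratio of the 9 members when no array was left out. It had values on 7 arrays. With the mutant in Cy5 it stood at -2.43, -2.53, -1.83 and -0.47 on arrays 2, 4, 6 and 7. With the mutant in Cy3 it stood at 2.49, -0.67 and -2.07 on arrays 1, 5 and 8. Array 1 was thus high by itself, and the other 6 arrays were below 0. The fitted ratio was -0.95 ± 0.45 (SE, 7 arrays, adjusted p = 0.262), which is 0.518 of the wild type level with an interval from 0.261 to 1.03. The value rested on single arrays. Without array 1 it was -1.59 ± 0.33 and past the threshold (adjusted p = 0.0340, with 1.99% of all probes called), and without array 8 it was -0.45 (adjusted p = 0.616), above that of Mmp17 (-0.47). The rank of Mmp9 thus rested on array 8. With the table read as Cy5 over Cy3, which is not how the Gapdh spots were read, Mmp9 stood at -0.87 and Mmp11 below it at -0.90.

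Mmp2, the other gelatinase and a product of fibroblasts, had values on 5 arrays only and did not meet the rule. It stood at -0.15, 0.21 and -0.08 on arrays 4, 6 and 7 and at 0.24 and 0.15 on arrays 5 and 8. All 5 values lay close to 0, with an SD of 0.18. Under the looser limit of 2 values of each orientation its ratio was 0.09 ± 0.23 (adjusted p = 0.871), with an interval from -0.43 to 0.62.

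The membrane-type enzymes are held at the cell surface, where some open the precursors of other metalloproteinases. Of 4 members, 3 had fitted ratios below 0 and none passed. Mmp17, which is tethered by a lipid anchor, was the member nearest to the threshold. It stood at -0.77, -0.97, -1.11 and -0.91 on arrays 2, 4, 6 and 7 and at -0.36, -0.23, 0.58 and -0.57 on arrays 1, 3, 5 and 8. It was below 0 on 7 of 8 arrays, and 8.4% of all probes with 8 values were below 0 on at least 7 of them. The orientations differed at an unadjusted p of 0.0469 (limma), with lower values where the mutant was in Cy5. They differed at an unadjusted p below 0.05 (limma) for 31.9% of all probes. The fitted ratio of Mmp17 was -0.54 ± 0.18 (SE, 8 arrays, unadjusted p = 0.0103, adjusted p = 0.112). It lay between -0.66 and -0.47 with 1 array left out, with an adjusted p of 0.0922 or more. A robust fit, which gives less weight to outlying values such as that of array 5, gave -0.62 ± 0.10 and passed (adjusted p = 0.00766), in a fit that called 9.94% of all probes.

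Mmp16, a transmembrane enzyme, stood at -1.28, -0.50, -1.22 and -2.02 with the mutant in Cy5 (arrays 2, 4, 6 and 7). It stood at -0.07, 1.18, 0.53 and -0.28 with the mutant in Cy3 (arrays 1, 3, 5 and 8). The means of the orientations were -1.25 ± 0.62 (SD, n = 4) and 0.34 ± 0.66 (SD, n = 4). They differed at an unadjusted p of 0.00332 (limma), where 31.9% of all probes lay below 0.05. The fitted ratio over both was -0.46 ± 0.22 (adjusted p = 0.265).

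Mmp14, the membrane-type enzyme that opens the precursor of Mmp2 together with Timp2, had the least scatter of the members. It stood at -0.45, -0.38, -0.42 and -0.05 on arrays 2, 4, 6 and 7 and at -0.54, -0.59 and 0.25 on arrays 1, 5 and 8. It was below 0 on 6 of 7 arrays, array 8 being the exception, and the means of the orientations were alike (-0.33 and -0.29). How many of all probes with 7 values lay so is not given. The fitted ratio was -0.31 ± 0.19 (adjusted p = 0.398). Mmp15, a relative of Mmp14 found in epithelia, stood between -1.01 on array 2 and 0.62 on array 1 with a median of 0.17 and a fitted ratio of 0.07 ± 0.21 (adjusted p = 0.888).

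The collagenases cut the intact triple helix of fibrillar collagen. Mmp8, the collagenase of neutrophils, stood at -0.29, -0.36, -0.12 and -0.67 on arrays 2, 4, 6 and 7 and at -0.05, 0.96, 0.26 and -0.77 on arrays 1, 3, 5 and 8. The orientations overlapped and the fitted ratio was -0.13 ± 0.20 (adjusted p = 0.758). Mmp13, the main interstitial collagenase of the mouse, scattered widely within each orientation, with 1.13, 1.50, -1.19 and 0.32 on arrays 2, 4, 6 and 7 and 1.08, -0.07 and -0.81 on arrays 3, 5 and 8. Its fitted ratio was 0.25 ± 0.33 (adjusted p = 0.707), from 0.00017 without array 3 to 0.52 without array 6. Both genes lie in the cluster of metalloproteinase genes on mouse chromosome 9, and their ratios lay on opposite sides of 0 with intervals that held it.

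Promoters of this cluster are known for sites of AP-1, the dimer of Jun and Fos proteins, and are shown because Mmp13 and 3 of the thinly measured genes carry the same letters, as does Mmp12, whose stretch is not printed. The motif TGACTCA, or TGAGTCA on the other strand, was searched in windows from 250 bases before to 50 bases after each start (RefSeq, GRCm38.p6). It was found for 5.95% of the 27025 genes with a window and for 7 of 18 metalloproteinase genes with a window (38.9%). Of 5 members with a window, Mmp13 was the one with a match; a match is a description of letters and not a measured site. The 100 bases before the start are printed 5′ to 3′ with the motif in capitals, for Mmp13 at chr9:7272414-7272513, Mmp3 at chr9:7445722-7445821, Mmp7 at chr9:7691990-7692089 and Mmp10 at chr9:7502242-7502341, all on the + strand.
Mmp13: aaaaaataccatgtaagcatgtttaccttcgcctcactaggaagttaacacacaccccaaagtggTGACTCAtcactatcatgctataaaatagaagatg
Mmp3: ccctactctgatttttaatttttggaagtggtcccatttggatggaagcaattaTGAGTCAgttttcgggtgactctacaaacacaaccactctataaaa
Mmp7: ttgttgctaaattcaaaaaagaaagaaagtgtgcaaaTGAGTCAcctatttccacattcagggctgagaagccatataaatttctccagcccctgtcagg
Mmp10: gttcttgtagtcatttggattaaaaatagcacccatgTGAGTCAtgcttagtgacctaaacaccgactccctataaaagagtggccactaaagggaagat

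The 5 genes with a row and the motif had fitted ratios on both sides of 0. Whether they share a direction cannot be told, since every interval held 0. Their fitted ratios were 0.25 for Mmp13 and, under the looser limit, -0.27 ± 0.35 for Mmp3, 0.52 ± 0.34 for Mmp7, -0.08 ± 0.26 for Mmp10 and -0.38 ± 0.31 for Mmp12, each with an interval that held 0. Mmp10, the stromelysin of migrating keratinocytes, stood at 0.90 and 0.28 on arrays 4 and 7 and at -0.17, -1.59, -0.63 and -0.57 on arrays 1, 3, 5 and 8. The means were 0.59 with the mutant in Cy5 and -0.74 with it in Cy3, a difference not set against all probes. Mmp3, the stromelysin of dermal fibroblasts, was lowest on array 4 (-2.05) and highest on array 5 (0.65), and its median over 5 arrays was -0.11. Mmp7, the matrilysin of glandular epithelia, was lowest on array 2 (-1.28) and highest on array 8 (1.96), and its median over 6 arrays was 0.21.

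Mmp11, a stromelysin made by stromal cells around epithelia, had the highest fitted ratio of the members, 0.43 ± 0.33 (6 arrays, adjusted p = 0.502). It stood at -0.57, -0.54 and -0.27 on arrays 4, 6 and 7 and at 0.30, 3.06 and 0.63 on arrays 1, 3 and 5. The orientations differed at an unadjusted p of 0.0222 (limma), where 31.9% of all probes lay below 0.05. Array 3 was far above the rest. Without array 3 the fitted ratio was 0.00068 (limma, adjusted p = 0.999), and Mmp11 was no longer highest. Mmp13 stood above it without array 6 (0.52 against 0.45) and without array 8 (0.47 against 0.43). A robust fit gave 0.25 for Mmp13 and 0.083 for Mmp11. The rank of Mmp11 thus did not hold across these fits.

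Mmp19, which cuts proteins of the basement membrane, was higher with the mutant in Cy5. It stood at 0.57, 0.86 and 0.39 on arrays 4, 6 and 7 and at 0.18, -0.35 and -1.48 on arrays 1, 5 and 8. The orientations differed at an unadjusted p of 0.0428 (limma), beside the same 31.9% of all probes. The fitted ratio was 0.03 ± 0.25 (6 arrays, adjusted p = 0.963), and its sign turned when arrays 1, 5 or 6 were left out.

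**Figure D2:**
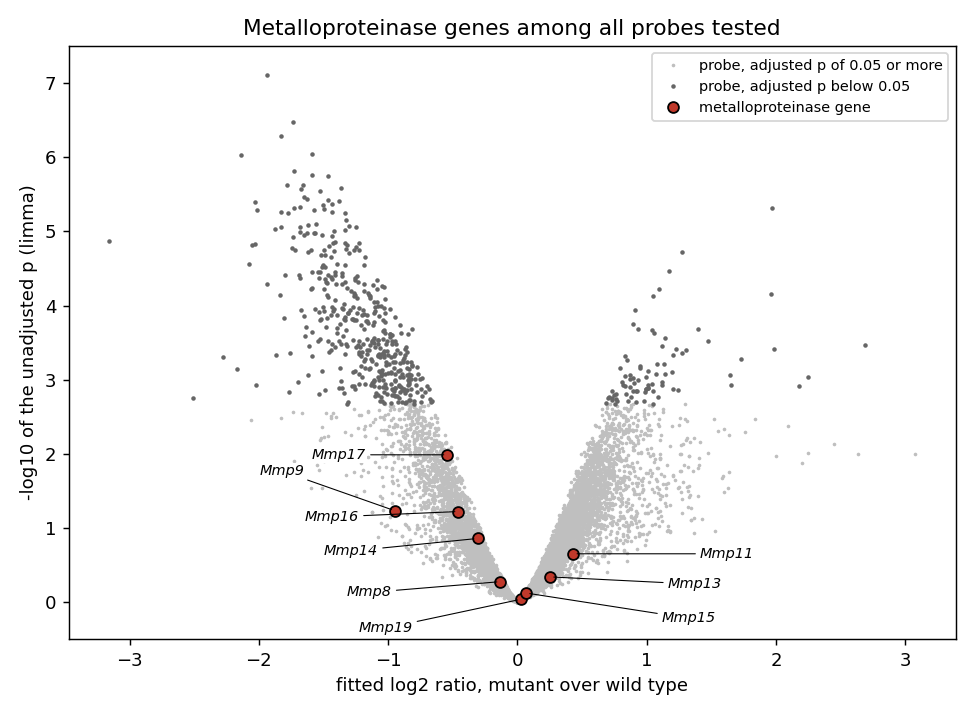
Fitted log2 ratio (x) against -log10 of the unadjusted limma p (y) for all 11974 probes, with those past the adjusted threshold in dark grey and the 9 metalloproteinase genes in red. All 9 lie in the region that did not pass, with Mmp17 nearest to it (unadjusted p = 0.0103).

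The rows with too few values gave no call either. Of 8 such rows, 6 could be fitted under the looser limit, 4 of them below 0, and 0 passed (limma), where 2.34% of 18066 probes did; 0 of the 6 had an unadjusted p below 0.05, where 17% of probes did. Mmp12, the elastase of macrophages, stood at -1.98, -1.03, -0.31 and 0.17 on arrays 2, 4, 6 and 7 and at 0.28 and -0.23 on arrays 5 and 8. Its ratio under the looser limit was -0.38 ± 0.31 (adjusted p = 0.575). Mmp23 lay between -0.60 and 0.36 on 5 arrays, with a ratio of -0.07 ± 0.26. Mmp20, the enzyme of tooth enamel, had values on 3 arrays, -0.45, -0.15 and -0.48 on arrays 4, 5 and 7. Mmp24 had a value on array 2 alone, 5.07, for which no error can be given. The 6 genes without a matched row, Mmp1a, Mmp1b, Mmp21, Mmp25, Mmp27 and Mmp28, were not analysed here.

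**Figure D3:**
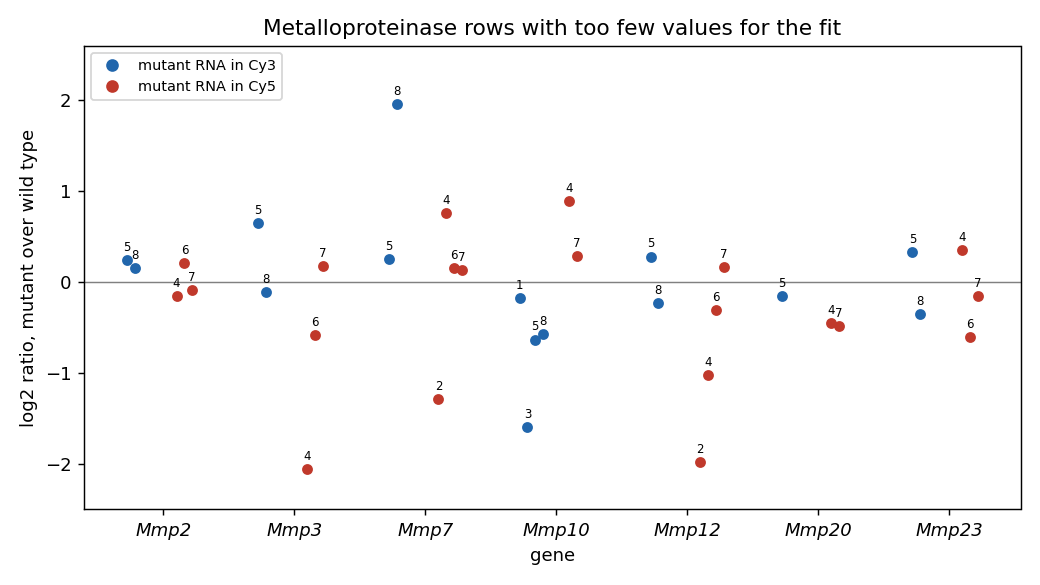
Log2 ratio of mutant over wild type for 7 metalloproteinase rows with too few values for the main fit; each point is 1 array with its number, blue with the mutant in Cy3 and red in Cy5. Mmp24 (5.07 on array 2 alone) is not drawn; Mmp2 stays close to 0, and Mmp3, Mmp7, Mmp10 and Mmp12 spread over more than 2 units.

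The 2 dye orientations were also compared member by member. The dye part, the mean with the mutant in Cy5 minus that with the mutant in Cy3, was below 0 for 7 of 9 members, with a median of -0.59 against -0.03 over all probes, where 51.2% were below 0. It was -1.79 ± 0.67 for Mmp11, -1.73 ± 0.90 for Mmp9, -1.60 ± 0.44 for Mmp16, -0.79 ± 0.36 for Mmp17 and 1.16 ± 0.50 for Mmp19. None passed (limma, lowest adjusted p = 0.0529, for Mmp16), where 5.34% of probes passed. At an unadjusted p below 0.05 there were 4 members, where 31.9% of probes lay. If the table held Cy5 over Cy3 on every array, these parts, halved, would be the genotype ratios; Mmp11 would then stand at -0.90 and Mmp15 at -0.29 in place of 0.43 and 0.07, and again none would pass.

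Array by array, the members moved as unevenly. The median of the members with a value was -0.77, -0.38, -0.54 and -0.27 on arrays 2, 4, 6 and 7 and 0.06, 1.08, 0.02 and -0.67 on arrays 1, 3, 5 and 8. It was below 0 on 5 of 8 arrays, and on array 3 it rested on 5 members. The median over all probes ran from -0.11 on array 8 to 0.21 on array 2. The share of probes below 0 ran from 40.8% on array 4 to 56.2% on array 8. Exact sign-flip tests over arrays, two-sided and unadjusted, were run once for each of the 9 members. The exact tests gave p = 0.0391 for Mmp17, p = 0.0469 for Mmp14 and values from 0.141 to 0.969 for the others. The smallest possible p is 0.00781 with 8 arrays and 0.0313 with 6. These tests hold no dye term and treat the arrays as independent, and no share over all probes is given for them. With limma, Mmp14 had an unadjusted p of 0.138.

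**Figure D4:**
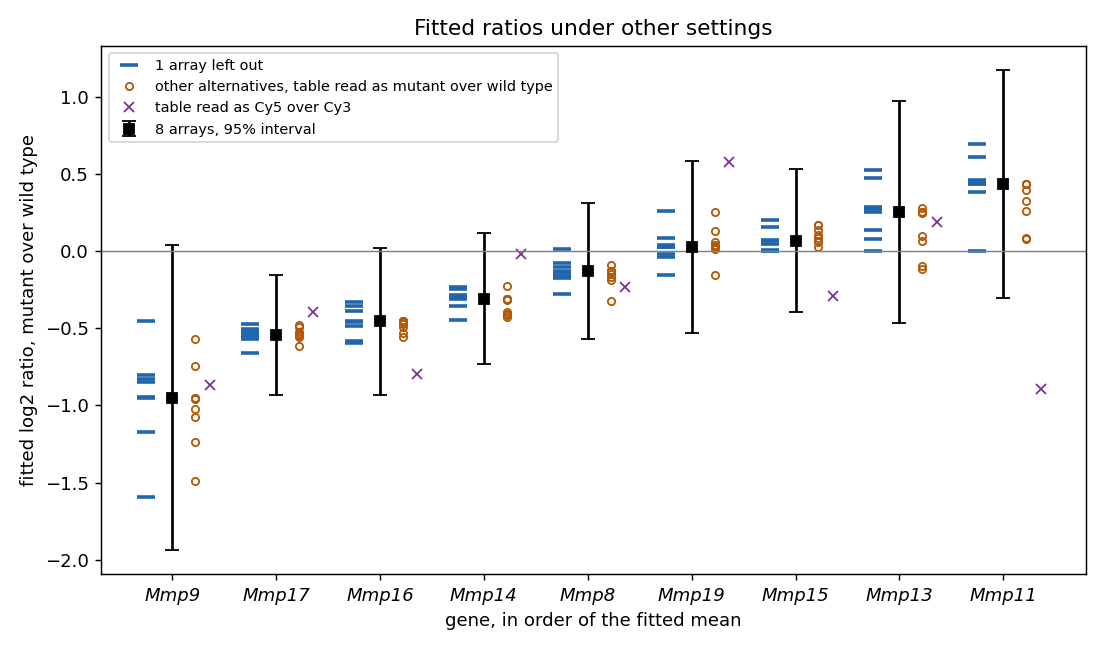
Fitted log2 ratio of each member with no array left out and its 95% interval (black), with 1 array left out (blue dashes), under the other alternatives (orange circles) and with the table read as Cy5 over Cy3 (purple crosses). Mmp9 moves most when 1 array is left out, from -1.59 to -0.45, while Mmp17 stays between -0.66 and -0.47.

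The genes most like Mmp17 over the 8 arrays, by the root mean square distance of their log2 ratios among 1587 named genes with 8 values, were Fgf13 (0.295), Man1a (0.296) and Hao1 (0.327). The median distance from Mmp17 was 1.13. Their fitted ratios were -0.62, -0.54 and -0.42, and none passed (adjusted p = 0.0681, 0.110 and 0.209). Read as Cy5 over Cy3, Fgf13, Man1a and Hao1 stood at -0.50, -0.39 and -0.65, and Mmp17 at -0.40. None passed (limma), where 5.34% of all probes did. The distance thus takes in the dye orientation as well as the mean ratio.

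Of the inhibitors that surround the family, 8 of 16 listed genes were tested. Of these, 1 was higher, none was lower and 7 did not pass, where 4.21% of all probes passed. The gene that rose was Serpinf2, which encodes the inhibitor of plasmin and so acts on an activator of metalloproteinases rather than on the enzymes themselves. It stood at 1.17, 1.35, 0.85 and 0.76 on arrays 2, 4, 6 and 7 and at 0.16, 0.46, -0.07 and 1.38 on arrays 1, 3, 5 and 8. The fitted ratio was 0.76 ± 0.20 (limma, adjusted p = 0.04998). It lay at the threshold itself and was past it in none of the 8 fits with 1 array left out (adjusted p from 0.0633 to 0.129). The TIMPs, named after their values were seen, did not pass (limma). Timp3, the inhibitor bound to matrix, stood at 0.56 ± 0.23 (adjusted p = 0.186) and Timp2 at 0.48 ± 0.36 (adjusted p = 0.481). Timp2 rested on array 8 (2.56): its ratio was 0.024 without that array and 0.75 without array 1. The median of the list was -0.0024.

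Of 26 activators and cofactors 6 were tested and none passed, where 4.21% of all probes did. At an unadjusted p below 0.05 (limma) there were 0, where 20.5% of all probes lay. Cma1, the chymase of mast cells, was highest at 0.51 ± 0.24 (adjusted p = 0.265) and Plat, the tissue plasminogen activator, lowest at -0.19 ± 0.28 (adjusted p = 0.736). Of 14 cathepsins, proteases that act mostly in lysosomes, 7 were tested and none passed (limma). At an unadjusted p below 0.05 there were 2 of the 7, to be read beside the same 20.5%. The 7 fitted ratios ran from -0.35 for Ctsc to 0.68 for Ctsa (adjusted p = 0.525 and 0.137).

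Among the ADAM and ADAMTS enzymes, relatives that shed membrane proteins or cut proteoglycans, 9 of 49 listed genes were tested and 1 was lower. The share of all probes past the threshold was 4.21%. Adam19, a membrane-bound sheddase, stood at -0.58, -0.19, -0.82 and -2.13 on arrays 2, 4, 6 and 7 and at -1.01, -1.23, -0.50 and -0.85 on arrays 1, 3, 5 and 8. It was below 0 on 8 of 8 arrays, where 8.4% of all probes with 8 values were below 0 on at least 7. Adam19 fell by 0.92 (limma, SE 0.22, adjusted p = 0.0356), with overlapping orientations. It stayed past the threshold in 1 of the 8 fits with 1 array left out, that without array 4, and reached an adjusted p of 0.107. The other 8 ran from -0.22 to 0.38.

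Of 25 AP-1 and ETS transcription factors, which are known to bind promoters of metalloproteinase genes, 15 were tested and 1 was lower. The share over all probes was again 4.21%. Ehf, an epithelial ETS factor and not a member of AP-1, stood at -1.41, -2.56, -1.73 and -1.17 on arrays 2, 4, 6 and 7 and at -1.34, -1.38, -1.57 and -0.80 on arrays 1, 3, 5 and 8. It was below 0 on all 8 arrays, where 8.4% of all probes with 8 values were below 0 on at least 7. It fell by 1.50 (SE 0.20, adjusted p = 0.00229) and stayed past the threshold in all 8 fits with 1 array left out. It was not past it with arrays 4 to 8 alone (-1.50, adjusted p = 0.0587) or with the table read as Cy5 over Cy3 (-0.22, adjusted p = 0.447). The median of the list was -0.04.

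Of 40 matrix proteins that metalloproteinases cut, 21 were tested, 1 was higher and 20 did not pass, with a median of 0.03. Here too the share over all probes was 4.21%. Fbn1, the main protein of microfibrils, was higher at 0.75 ± 0.19 (adjusted p = 0.0420). It stood at 1.97, 1.33, 0.86 and 1.40 on arrays 2, 4, 6 and 7 and at 0.07, -0.27, -0.02 and 0.64 on arrays 1, 3, 5 and 8. Its dye part was 1.28 ± 0.37 (limma, adjusted p = 0.0578) and did not pass, where 5.34% of all probes did. With 1 array left out the ratio of Fbn1 stayed past the threshold in 1 of 8 fits, that without array 3, and reached an adjusted p of 0.122.

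**Figure D5:**
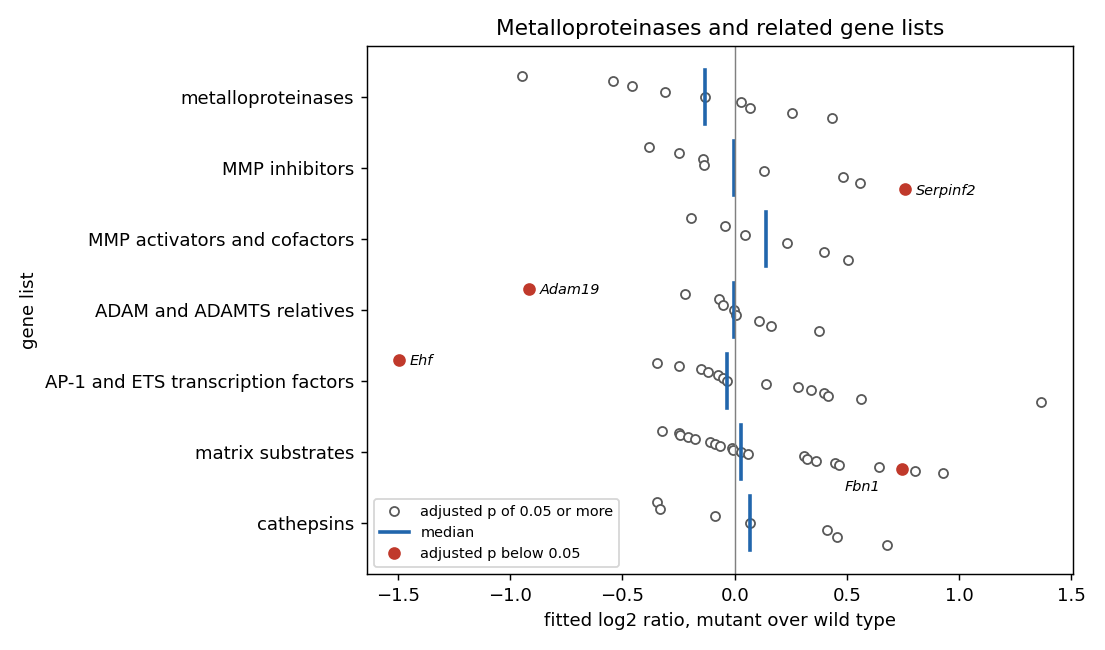
Fitted log2 ratio of mutant over wild type for the metalloproteinase genes and 6 related lists; each circle is a gene, filled red where the adjusted p was below 0.05, and blue bars are list medians. List medians lie between -0.13 and 0.14, and the red genes are Serpinf2, Adam19, Ehf and Fbn1.

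Markers of cells that make metalloproteinases were read beside these values, and their part in them was not tested. Over all probes, 4.21% passed and 20.5% had an unadjusted p below 0.05 (limma). Of 5 neutrophil markers tested of 10 listed, none passed, and their fitted ratios ran from -0.96 to 0.78. Of these, 3 had an unadjusted p below 0.05 (limma). Of 6 macrophage markers of 12 listed, C1qb was lower at -1.37 and none was higher. The macrophage list had a median of 0.06, with 3 fitted below 0 and Tyrobp highest at 0.71. Of 7 mast cell markers of 10, Mcpt2 was higher at 1.05, and 2 of the 7 were fitted below 0. Of 7 fibroblast markers of 10, Vim at 1.17 and Fbn1 were higher, with a list median of 0.75. Of 3 keratinocyte markers of 10, Krt1 was higher at 1.30, while Ivl stood at -1.06 and did not pass. Of 8 hair follicle markers of 10, Krt31 at -1.27 and Krt71 at -0.79 were lower. Only 3 of the 8 were fitted below 0, with a list median of 0.03 and Krt35 highest at 0.63. None of 5 endothelial markers of 8 passed (limma; 2 at an unadjusted p below 0.05). These markers were named after their values were seen.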

How the data were processed

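The authors deposited log2 ratios (base assumed) of the 2 channels for 8 arrays; labelling followed standard protocols per the labels, and no source used here gives the image analysis, the normalization, the base or why values are missing. Of 23232 rows, 1235 control spots were left out, 232 Gapdh spots were averaged into 1 probe, and 180 numbered spots of other accessions stayed separate. Rows were named by RefSeq accession without version (6518 of 21766 probes, table of GRCm38.p6).

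Probes with values on at least 3 of 4 arrays of each orientation entered a linear model of the mean ratio and the dye orientation (limma 3.58.1, R 4.3.3, empirical Bayes, two-sided, Benjamini-Hochberg over all probes, threshold 0.05). The script was tested on simulated data. Each ± is the fitted SE unless SD is stated. The number of arrays limits the precision; spot intensities were not used here.

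Named were all metalloproteinase rows and, of each list, the genes past the threshold or else the highest and lowest. Members and lists were chosen with earlier results of these data known. Alternatives were centring, scaling, quantile normalization, other filters, no dye term, another reading of the table, named genes alone, array weights, a robust fit, arrays 4 to 8, and each array left out.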

Additional observations from a re-analysis of the deposited data

Results flagged for a closer look

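By Dixon's test, 6 of 35 sets of values had a single array far from its neighbours. Where all arrays have the same spread, chance flags about 1 set in 20, which is 1.75 of 35. Here the SD ran from 0.57 on array 5 to 1.60 on array 2, and the sets share values. An excess over chance can therefore not be read from these counts. Mmp9 stood at 2.49 on array 1, with the next value at -0.47. Mmp11 stood at 3.06 on array 3, with the next value at 0.63. Timp2 stood at 2.56 on array 8 and Timp3 at 1.89 on array 3, with the next values at 0.71 and 0.75. Mcpt2 stood at 0.15 on array 5, with the next value at 0.99. The median over the members was 1.08 on array 3, where it rested on 5 of the 9, and the next highest was 0.06 on array 1. Array 3 had the fewest values of all arrays (41.3% of rows).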

How the results depend on the processing

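Of 164 fitted ratios of members under 19 alternatives, 153 kept their direction and their side of the threshold. The count of members past the threshold was 0, except 1 with a robust fit (Mmp17) and from 0 to 1 without 1 array (Mmp9 without array 1). With the table read as Cy5 over Cy3, the ratio turned for Mmp11 (-0.90), Mmp15 (-0.29), Cma1 (-0.39), Timp2 (-0.25), Timp3 (-0.097), Vim (-0.71) and Krt1 (-0.40). Under that reading Ehf (-0.22), Adam19 (-0.017), Serpinf2 (0.27) and Fbn1 (0.64, adjusted p = 0.0578) also lost their calls, and with arrays 4 to 8 alone all 4 did. Mmp13 turned with array weights (-0.096). With arrays 4 to 8 alone, Mmp13 (-0.12), Mmp19 (-0.16) and Plat (0.090) turned. Without 1 array, Mmp19 ranged from -0.16 to 0.26, Mmp8 from -0.28 to 0.014 and Plat from -0.36 to 0.029.

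Over all probes the count of 504 became 776 with a common spread, 1137 with quantile normalization, 258 without a dye term, 1384 with array weights, 1190 with a robust fit, 46 of 14947 with arrays 4 to 8 alone, 130 of 3730 with named genes alone and from 238 to 502 without 1 array. Of the related lists, 4 of 66 genes passed. The count was 2 with each array centred, 1 of 98 under the looser limit on values and 1 without a dye term. It was 0 of 89 with arrays 4 to 8 alone, from 1 to 2 without 1 array and 3 with named genes alone. It was 6 with quantile normalization and with array weights, 5 with a robust fit and 5 of 31 with values on all 8 arrays. With a common spread it stayed at 4. It was also 4 with the table read as Cy5 over Cy3, where the 4 genes named above had lost their calls. The cause was not tested. No paired analysis was possible because the 8 arrays form 1 group of ratios and no label links an array to an animal.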
